A study of Mus musculus with 4 samples.

Results

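The genes described here are 45 interferon-stimulated genes and interferon-related transcription factors, among them the genes of the ISGF3 subunits IRF9 and STAT2, in cultured mouse tail keratinocytes (KCs). They were chosen by gene symbol from a list written with earlier results of these data known. Each was found as 1 of the 25814 genes listed for every library. RNA-seq of polyadenylated RNA was compared between 2 libraries of the genotype Wildtype (WT) and 2 of the genotype Nfat5-Knockout (Nfat5-/-), all untreated primary cultures prepared from tails of adult mice of the strain 129/sv and kept in serum-free SFM KC medium with low calcium. The WT mice were littermates of mice lacking the transcription factor NFAT5 in every cell, and tails travelled overnight on ice before KCs were isolated, in both genotypes. A shared replicate number is not stated to mark a shared animal, and which animal gave which culture is not stated, so p-values cover only the spread between these libraries.

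Type I and type III interferons are secreted by cells that sense viral nucleic acids. Their receptors activate the kinases JAK1 and TYK2, which phosphorylate STAT proteins. STAT2 and IRF9 are subunits of the complex ISGF3, which binds the interferon-stimulated response element (ISRE) in front of its target genes. Interferon gamma acts mainly through another motif, the GAS element. Keratinocytes form the outer barrier of the skin and carry receptors for these interferons, and many interferon-stimulated genes are transcribed at a low level without infection.

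Depth was 16219445 and 21612980 gene reads in the WT libraries and 23494436 and 18645422 in the pair labelled Nfat5-/-, and 3 reads corresponded to 0.128 to 0.185 CPM (gene reads relative to the library total). Such floors cover counting error alone. The Nfat5 gene did not separate the labels, with counts of 408 and 929 for WT and of 715 and 770 for the other pair, and its log2 fold change was 0.09 (SE 0.26, edgeR adjusted p 0.913). These counts cover the whole gene and may include exons outside the deletion, whose position is not given in the sources used here. The genotype is therefore given as labelled throughout. Summed levels of 8 keratinocyte markers were 11250 to 13270 RPKM (exon reads relative to exon length and library size) in the 4 libraries, with 1 of the 8 called lower. Summed melanocyte markers, with 4 of 4 tested below 0 and 1 (Tyrp1) called, were at 7.29 and 6.99 RPKM in WT against 2.04 and 2.89 RPKM in the pair labelled Nfat5-/-. Mlana, not tested, overlapped between groups, at 0.483 and 0.580 RPKM in WT against 0.533 and 0.336 RPKM. Smooth muscle markers were at 184 and 151 RPKM against 518 and 819 RPKM, with 4 of 4 tested markers called higher. Most of that sum was Acta2, at 164 and 134 RPKM against 450 and 723 RPKM. Des, not tested, had 1 read in WT replicate 1 and 0 elsewhere. Leukocyte markers summed to 1.87 to 4.02 RPKM, mostly from Cd74 and H2-Ab1, with Siglech at 0. Gene reads of Ptprc were 2 and 22 in WT against 10 and 5 in the other pair. Those of Cd3e were 0 and 6 against 1 and 2. Both were highest in WT replicate 2, unlike Cd74 and H2-Ab1. Fibroblast markers summed to 0.409 to 1.13 RPKM and endothelial markers to 0.528 to 0.751 RPKM, with 0 calls in all these last 3 lists. Whether these marker levels have a part in the differences below was not tested.

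Promoter sequences of a few of the genes are shown because ISGF3 acts through a short motif, so its presence can be set beside the expression values. The reference table of RefSeq start sites on GRCm38.p6 gave a window of 300 bases, 250 before and 50 after the start, for 34 of the 45 genes. These are reference sequences and not those of the 129/sv cells. The core searched was GAAA, any 2 bases and GAAA again, on both strands, and on the opposite strand it reads TTTC, any 2 bases and TTTC. A gene with several annotated starts was counted if any of its windows held the core, and 1 such window is shown. The core stood in 19 of the 34 promoters (55.9%), against 1079 of 27025 genes in the table (3.99%) and 353 of the 9727 tested genes with a promoter (3.63%). Bases in capitals mark the core in the sequences below, written 5′ to 3′ along the strand of the gene.

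The first set shows 3 genes whose RNA was lower in the pair labelled Nfat5-/- and whose promoter holds the core. The window of Isg15 (chr4:156200769-156201068, minus strand) carried 3 overlapping cores that began 78, 72 and 66 bases before the start. In Apol9a (chr15:77411031-77411330, minus strand) 2 overlapping cores began 59 and 53 bases before the start, and in Apol9b (chr15:77728822-77729121, plus strand) the same run of bases began 37 and 31 bases before the start.
Isg15: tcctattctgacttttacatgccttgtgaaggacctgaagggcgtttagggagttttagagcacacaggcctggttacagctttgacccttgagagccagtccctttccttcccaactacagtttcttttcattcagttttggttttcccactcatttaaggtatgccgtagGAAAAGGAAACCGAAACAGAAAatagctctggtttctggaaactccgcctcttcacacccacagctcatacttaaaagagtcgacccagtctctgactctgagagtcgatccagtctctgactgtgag
Apol9a: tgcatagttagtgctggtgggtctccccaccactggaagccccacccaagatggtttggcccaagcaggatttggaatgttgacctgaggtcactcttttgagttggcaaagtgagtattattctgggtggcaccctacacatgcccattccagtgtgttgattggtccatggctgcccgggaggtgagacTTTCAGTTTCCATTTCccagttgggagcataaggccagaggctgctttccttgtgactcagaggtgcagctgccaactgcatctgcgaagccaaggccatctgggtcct
Apol9b: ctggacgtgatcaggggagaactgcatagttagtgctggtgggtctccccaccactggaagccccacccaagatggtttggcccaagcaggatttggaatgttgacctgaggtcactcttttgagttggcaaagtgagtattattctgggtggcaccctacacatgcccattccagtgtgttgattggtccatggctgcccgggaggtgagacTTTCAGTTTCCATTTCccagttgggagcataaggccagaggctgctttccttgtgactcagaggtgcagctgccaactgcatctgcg

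Irf9 (chr14:55603735-55604034, plus strand) is shown as a gene that was lower as well but whose window holds no match. No match says only that these letters are not in this window.
Irf9: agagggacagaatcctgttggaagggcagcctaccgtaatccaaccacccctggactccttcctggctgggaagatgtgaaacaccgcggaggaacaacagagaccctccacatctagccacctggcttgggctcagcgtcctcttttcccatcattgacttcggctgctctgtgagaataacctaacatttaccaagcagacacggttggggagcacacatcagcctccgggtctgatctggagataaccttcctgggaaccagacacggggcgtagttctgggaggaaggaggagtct

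The last set shows 3 genes with the core whose log2 fold change lay above 0. Bst2 (chr8:71537423-71537722, minus strand) had 2 overlapping cores from 130 and 124 bases before the start, Eif2ak2 (chr17:78882523-78882822, minus strand) had 1 core from 18 bases after it, and Ifitm3 (chr7:141010695-141010994, minus strand) had cores from 2 and 19 bases after it.
Bst2: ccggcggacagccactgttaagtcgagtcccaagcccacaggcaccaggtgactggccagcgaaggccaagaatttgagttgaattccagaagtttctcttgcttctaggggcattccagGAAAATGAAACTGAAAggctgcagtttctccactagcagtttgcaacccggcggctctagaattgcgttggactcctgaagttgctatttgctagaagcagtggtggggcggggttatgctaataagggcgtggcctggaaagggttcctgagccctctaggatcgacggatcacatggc
Eif2ak2: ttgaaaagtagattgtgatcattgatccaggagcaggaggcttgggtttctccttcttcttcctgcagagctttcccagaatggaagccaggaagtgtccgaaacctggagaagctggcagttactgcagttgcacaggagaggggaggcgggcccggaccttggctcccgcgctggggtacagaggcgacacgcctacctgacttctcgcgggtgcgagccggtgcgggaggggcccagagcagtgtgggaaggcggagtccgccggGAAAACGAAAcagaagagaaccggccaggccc
Ifitm3: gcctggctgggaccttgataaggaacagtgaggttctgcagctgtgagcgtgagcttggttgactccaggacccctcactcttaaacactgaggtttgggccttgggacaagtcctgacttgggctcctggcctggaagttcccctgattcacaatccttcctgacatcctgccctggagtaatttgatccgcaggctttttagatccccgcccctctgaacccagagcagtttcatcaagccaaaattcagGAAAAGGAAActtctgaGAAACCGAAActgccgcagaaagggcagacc

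To ask whether the interferon-related genes differed between the labelled genotypes, all genes were fitted together on their gene reads. Of the 45 genes, 35 passed the filter on low counts, and 5 of these were lower in the pair labelled Nfat5-/- at an adjusted p under 0.05: Irf9, Isg15, Ifi27, Xaf1 and Apol9a. None was higher (0 of 35). Over all 12614 genes tested, 0.325% were called lower and 0.943% higher. In bulk RNA, fewer cells of a type and less RNA per cell cannot be told apart. The median log2 fold change of the 35 genes was -0.66, with a range from -2.25 (Rtp4) to 0.49 (Bst2), beside a median of -0.01 over all genes tested. A log2 fold change below 0 was found in 31 of the 35, against 52% of all genes tested, and 13 of the 35 lay at -1 or below, against 1.47%. Both counts include Oas1b and Rtp4, which passed the filter only on their WT levels and so had to differ.

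Without replicate 1 of the pair labelled Nfat5-/- 0 of the genes were called, and without replicate 2 again 0, in fits that called 3 genes lower each among all tested (0.0232% and 0.023%). The log2 fold changes in these fits were -1.43 and -1.13 for Irf9, -1.54 and -1.65 for Ifi27, -1.70 and -1.52 for Isg15, -1.42 and -1.05 for Xaf1 and -2.40 and -1.77 for Apol9a. Without WT replicate 1, 9 were called lower (0.529% of all genes), with Apol9b, Dtx3l, Parp14 and Samd9l added. Without WT replicate 2, 8 were (1.52%), with Apol9b, Oas3 and Stat2 added. DESeq2 on all libraries called 7 lower, the 5 with Apol9b and Parp14, and 0 higher, against 0.654% and 1.65% of the 18043 genes it fitted. At an unadjusted p under 0.05, 18 of the 35 were lower and 1, Bst2, higher, beside 6.47% and 8.17% of all genes tested. The filter let 2 genes, Oas1b and Rtp4, through only on their WT levels, so that these had to differ, and 76 of all genes tested passed in this way. Both are among the 18.

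Levels of all 45 genes, tested or not, can be read as RPKM. Both libraries labelled Nfat5-/- lay below both WT libraries in 27 genes and above both in 2, and the groups overlapped in 16. The first of these patterns was found in 19.9% of all genes with at least 1 read. Among the 35 tested genes the counts were 24 below and 2 above (Oas1g and Bst2), against 25% and 21.6% of all genes tested. The 24 include Oas1b and Rtp4, which passed the filter only on their WT levels. The group mean was lower in the pair labelled Nfat5-/- for 38 genes and higher for 7. RNA levels were mostly low, and the WT mean was under 1 RPKM in 20, between 1 and 10 RPKM in 20 and at 10 RPKM or more in 5.

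**Figure D1:**
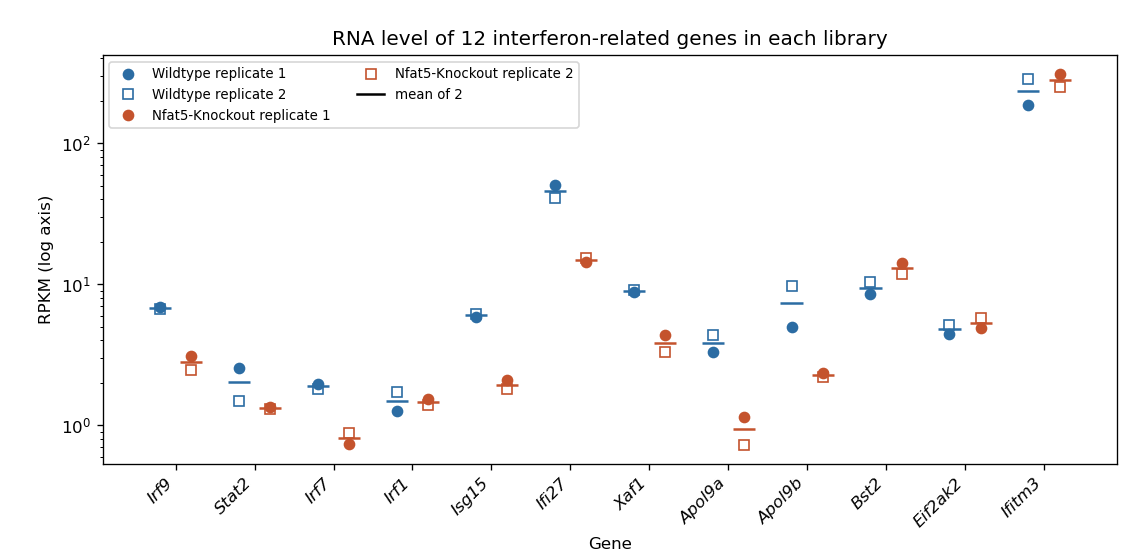
RNA level in RPKM on a log axis of 12 interferon-related genes, with a point for each of the 2 WT (Wildtype, blue) and 2 Nfat5-Knockout (orange) libraries and a bar at each group mean. Irf9, Isg15, Ifi27, Xaf1 and the Apol9 copies show no overlap between groups with WT above, Bst2 none with WT below, and Irf1, Eif2ak2 and Ifitm3 overlap.

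Among the 4 transcription factors, Irf9 was called lower and the other 3 did not pass the test. Irf9 (ENSMUSG00000002325, chromosome 14, 55603571 to 55610030 on GRCm38, the build of all positions here) encodes the subunit that gives ISGF3 its DNA specificity. Its level was 6.96 and 6.71 RPKM in WT against 3.12 and 2.49 RPKM in the pair labelled Nfat5-/-. The WT libraries lay close together and well above the other pair. The log2 fold change was -1.27 (SE 0.16, edgeR adjusted p 0.0203, higher in WT by 2.41-fold). Irf9 overlaps the neighbouring gene Rnf31 on the same strand by 123 bases.

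Irf7, which amplifies the transcription of type I interferon genes, was at 1.96 and 1.81 RPKM in WT against 0.738 and 0.888 RPKM in the pair labelled Nfat5-/-. The groups did not overlap, and the log2 fold change of -1.21 (SE 0.26) had an edgeR adjusted p of 0.0811. It overlaps Phrf1 on the opposite strand by 45 bases. Stat2, which carries the main transactivation domain of ISGF3, was at 2.57 and 1.48 RPKM in WT against 1.35 and 1.30 RPKM. Only WT replicate 1 stood clearly above the rest, and the change (log2 -0.66, SE 0.26, edgeR adjusted p 0.304) became -0.98 without WT replicate 2 (adjusted p 0.0363) and -0.26 without WT replicate 1. Irf1, a factor induced by interferon gamma, was at 1.26 and 1.73 RPKM in WT against 1.53 and 1.40 RPKM in the other group. Its groups overlapped, and the change (log2 -0.02, SE 0.23, edgeR adjusted p 0.977) turned positive without WT replicate 2 (0.24).

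The cytoplasmic sensors of viral RNA had lower means without a call in the 3 of 4 that were tested. Dhx58 (LGP2), a helicase that tunes the other RNA sensors, was at 0.898 and 0.730 RPKM in WT against 0.344 and 0.456 RPKM in the pair labelled Nfat5-/- (log2 fold change -0.97, SE 0.36, edgeR adjusted p 0.282). Its groups did not overlap. Ddx58 (RIG-I) was the most abundant sensor, at 10.7 and 13 RPKM in WT against 11.3 and 11.6 RPKM in the other group. Its groups overlapped, and the log2 fold change was -0.21 (SE 0.10, edgeR adjusted p 0.383) on gene reads and -0.04 on uniquely placed exon reads. Intron reads made up 493, 481, 445 and 284 of its 1184, 1597, 1500 and 1146 gene reads, in the order WT and then Nfat5-/-. The log2 fold change of Ifih1 (MDA5) was -0.48 (SE 0.22, edgeR adjusted p 0.376), with -0.74 without WT replicate 1 and -0.13 without WT replicate 2. Zbp1, a sensor of Z-form nucleic acid, had at most 3 reads in any library and was not tested.

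Of the genes for IFIT proteins, which bind foreign RNA ends, Ifit2 alone passed the edgeR filter on low counts. On uniquely placed exon reads it was at 7.16 and 5.53 CPM in WT against 5.79 and 4.88 CPM in the pair labelled Nfat5-/-. These groups overlapped, and the log2 fold change was -0.23 (SE 0.23, edgeR adjusted p 0.702), with -0.20 on gene reads. Ifit1 had gene read counts of 5 and 18 for WT and of 9 and 4 for the other pair. Ifit3 and its copy Ifit3b share long stretches: 47.4% of all windows of 59 bases in the Ifit3 transcripts also occurred in those of Ifit3b. Uniquely placed exon reads were 1 and 4 in WT against 6 and 2 in the other group for Ifit3, and 1 and 0 against 3 and 0 for Ifit3b. Ifit1, Ifit3 and Ifit3b did not pass the edgeR filter on low counts.

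The OAS enzymes make short oligoadenylates that activate RNase L when double-stranded RNA is present, and 4 of the 7 were tested without a call. Oas3 had the lowest fold change, from uniquely placed exon reads of 94 and 33 in WT against 22 and 21 in the pair labelled Nfat5-/-. WT replicate 1 was far above the other 3 libraries, as its RPKM of 1.18 against 0.313, 0.195 and 0.224 shows. The log2 fold change was -1.79 (SE 0.60, edgeR adjusted p 0.215) on these reads and -1.80 on gene reads (adjusted p 0.233). On gene reads it was -0.64 without WT replicate 1 and -2.47 without WT replicate 2 (adjusted p 0.00533).

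The Oas1 copies were measured on uniquely placed exon reads because 53.3% of Oas1a windows of 59 bases also occurred in Oas1g. Oas1a was at 2.90 and 2.65 CPM in WT against 1.55 and 2.75 CPM in the pair labelled Nfat5-/-, so its groups overlapped on this measure (log2 fold change -0.37, SE 0.35, edgeR adjusted p 0.689, and -0.47 on gene reads). Oas1g was at 0.796 and 0.650 CPM against 0.699 and 0.813 CPM, so its groups overlapped here although they were apart on RPKM, which counts shared reads too. Its log2 fold change was 0.08 (SE 0.43, edgeR adjusted p 0.952) and 0.26 on gene reads. Oas1b, with 0.194% of windows shared with Oas1a, had unique read counts of 10 and 13 for WT and of 2 and 6 for the other pair. On gene reads it passed the filter only on its WT levels and so had to differ. The Oas1b groups did not overlap, and its log2 fold change was -1.62 (SE 0.65, edgeR adjusted p 0.299) and -1.58 on gene reads. The latter became -0.94 without Nfat5-/- replicate 1 and -2.48 without replicate 2 of that group. Oas2, Oasl1 and Oasl2 were not tested, with at most 3, 17 and 6 gene reads in any library.

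ISG15 is a ubiquitin-like protein that is attached to other proteins after interferon exposure. Isg15 (ENSMUSG00000035692, chromosome 4, 156199424 to 156200818) was at 5.89 and 6.15 RPKM in WT against 2.09 and 1.80 RPKM in the pair labelled Nfat5-/-. Both WT libraries were above both of the others by a wide margin. The log2 fold change was -1.60 (SE 0.26, edgeR adjusted p 0.0398, higher in WT by 3.04-fold), resting on 74, 103, 38 and 26 gene reads.

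The other 5 genes of this group, all for enzymes of ISG15, ubiquitin or ADP-ribose transfer, kept the groups apart with WT above, though none of them passed the test on gene reads. That order of the libraries was found in 25% of all genes tested. Usp18, which removes ISG15 and restrains the type I receptor, was at 1.18 and 1.80 RPKM in WT against 0.696 and 0.301 RPKM in the other group (log2 fold change -1.51, SE 0.42, edgeR adjusted p 0.161). It went to -2.24 without Nfat5-/- replicate 1 and to -1.07 without replicate 2 of that group. Parp14, an ADP-ribosyltransferase, was at 1.41 and 2.37 RPKM against 0.918 and 0.975 RPKM. Its fold change (log2 -1.0, SE 0.25) had an adjusted p of 0.125 in edgeR and 0.0381 in DESeq2. It was -1.31 without WT replicate 1 (edgeR adjusted p 0.00970) and -0.59 without WT replicate 2 (edgeR adjusted p 0.204). Parp9 and Dtx3l, which form a ubiquitin ligase together, had log2 fold changes of -0.65 each (edgeR adjusted p 0.158 and 0.287). The value of Dtx3l was -0.93 without WT replicate 1 (adjusted p 0.0494) and -0.26 without WT replicate 2. Both genes overlap on opposite strands by 682 bases, where reads cannot be told apart without strand. Trim25, a ubiquitin ligase of the RIG-I pathway, was at 9.91 and 11.0 RPKM in WT against 8.30 and 7.74 RPKM in the pair labelled Nfat5-/- (log2 fold change -0.37, SE 0.11, edgeR adjusted p 0.186). It was the most abundant gene of this group and the one with the smallest difference.

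The antiviral GTPases gave 0 calls. Mx1 and Mx2, which trap viral nucleocapsids, had at most 2 gene reads in any library. Gbp3, a guanylate-binding protein, was at 0.357 and 0.903 RPKM in WT against 0.441 and 0.213 RPKM in the other group. The groups overlapped (log2 fold change -0.90, SE 0.53, edgeR adjusted p 0.495). The value was -0.059 without WT replicate 2 and -1.54 without Nfat5-/- replicate 1. For Gbp2 the levels were 1.91 and 2.30 RPKM in WT against 1.70 and 2.06 RPKM in the pair labelled Nfat5-/-. These overlapped too (log2 fold change -0.17, SE 0.22, edgeR adjusted p 0.777), and Gbp7 had a log2 fold change of -0.34 (edgeR adjusted p 0.676).

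**Figure D2:**
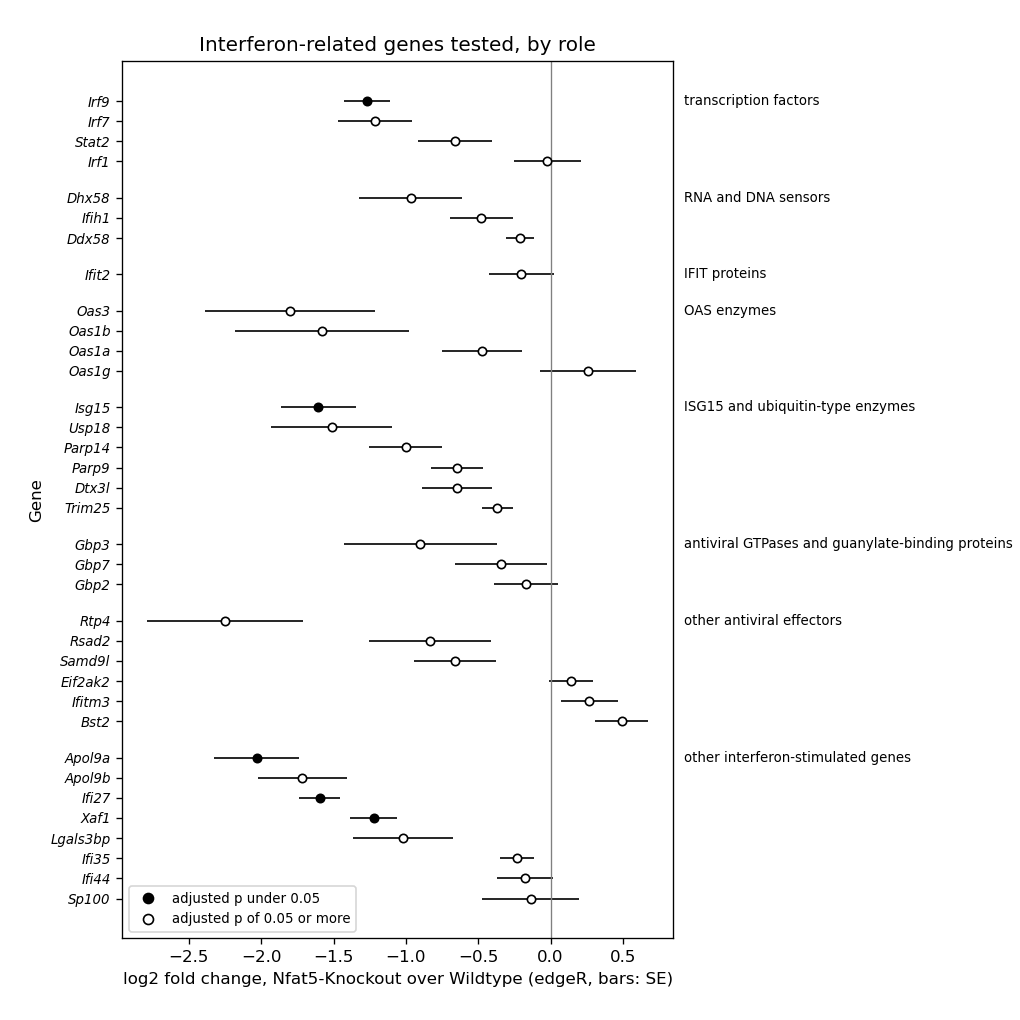
Log2 fold change, Nfat5-Knockout over WT, from the edgeR fit on gene reads for the 35 genes tested, grouped by role, with bars for 1 SE and filled points for an adjusted p under 0.05. Points spread from -2.25 (Rtp4) to 0.49 (Bst2), and the 5 filled points are Irf9, Isg15, Apol9a, Ifi27 and Xaf1.

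The remaining antiviral effectors spread in both directions, with 3 of 6 tested below 0, 3 above 0 and none called. Rtp4 had the lowest fold change of the 35 genes from few reads, 14 and 36 in WT against 5 and 6 in the pair labelled Nfat5-/-. It passed the filter only on its WT levels and so had to differ. Its RPKM of 0.339 and 0.742 against 0.0974 and 0.148 kept the groups apart (log2 fold change -2.25, SE 0.54, edgeR adjusted p 0.112). Bst2 (tetherin), which holds budding virus at the cell surface, was at 8.51 and 10.3 RPKM in WT against 14.2 and 11.9 RPKM in the other group. Here the libraries labelled Nfat5-/- were the higher ones, without overlap, and the log2 fold change was 0.49 (SE 0.18, edgeR adjusted p 0.283). Ifitm3, which blocks virus entry, was the most abundant gene of all 45, at 188 and 284 RPKM in WT against 311 and 250 RPKM in the pair labelled Nfat5-/-. It overlapped between groups (log2 fold change 0.27, SE 0.20, edgeR adjusted p 0.588), and the value was 0.012 without WT replicate 1 and 0.60 without WT replicate 2.

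Eif2ak2 (PKR), a kinase that stops translation on double-stranded RNA, was at 4.42 and 5.18 RPKM in WT against 4.89 and 5.76 RPKM in the other group. Its log2 fold change was 0.14 (SE 0.15, edgeR adjusted p 0.732), with overlapping groups. Samd9l, a growth and translation inhibitor, had a log2 fold change of -0.66 (edgeR adjusted p 0.346) and Rsad2 (viperin) one of -0.83 (edgeR adjusted p 0.421). Without WT replicate 1 the value of Samd9l was -1.02 (adjusted p 0.0321), and without WT replicate 2 it was -0.14. That of Rsad2 was -0.28 without WT replicate 2 and -1.24 without Nfat5-/- replicate 1. Cmpk2, a nucleotide kinase and the neighbour of Rsad2 at a distance of 12752 bases, had at most 8 gene reads and was not tested.

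The last group, interferon-stimulated genes of other or less settled function, held 3 of the 5 calls. Ifi27 (ENSMUSG00000064215, chromosome 12, 103434211 to 103440239) was the most abundant of the called genes, at 50.4 and 40.8 RPKM in WT against 14.4 and 15.4 RPKM in the pair labelled Nfat5-/-. No library of one group came near the other group. The log2 fold change was -1.60 (SE 0.14, edgeR adjusted p 0.00768, higher in WT by 3.02-fold). Xaf1 (ENSMUSG00000040483, chromosome 11, 72301629 to 72313733), whose protein binds the apoptosis inhibitor XIAP, was at 8.88 and 9.15 RPKM in WT against 4.40 and 3.31 RPKM in the other group. The groups were again apart (log2 fold change -1.22, SE 0.16, edgeR adjusted p 0.0251).

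Apol9a and Apol9b, similar genes of the apolipoprotein L family, lie 317904 bases apart on chromosome 15 (77403789 to 77411135 and 77729039 to 77736382). Of the exon reads, 50.4% for Apol9a and 48.4% for Apol9b were placed at a single site, and 48.1% of Apol9b windows of 59 bases occurred in Apol9a as well, while 15.2% of Apol9a windows occurred in Apol9b. The unique exon reads of Apol9a were 52 and 90 in WT against 22 and 12 in the pair labelled Nfat5-/-, or 3.76 and 4.88 CPM against 1.10 and 0.751 CPM. Those of Apol9b were 75 and 194 in WT against 46 and 35 in the other group, or 5.43 and 10.5 CPM against 2.30 and 2.19 CPM. For both copies each WT library was above each of the others, although the WT libraries of Apol9b differed from one another more than those of Apol9a. On these reads the log2 fold change was -2.19 (SE 0.32, edgeR adjusted p 0.0203) for Apol9a and -1.82 (SE 0.34, edgeR adjusted p 0.0431) for Apol9b. On gene reads it was -2.03 (adjusted p 0.0289) and -1.71 (adjusted p 0.0558), so the call of Apol9b depended on which reads were counted.

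With Apol9b, the fit on uniquely placed exon reads called 6 of 35 genes lower and 0 higher, beside 0.471% and 1.4% of the 11680 genes it tested. The other genes of the group were not called. Lgals3bp, a secreted glycoprotein that binds galectin-3, was at 0.973 and 1.38 RPKM in WT against 0.458 and 0.732 RPKM, groups that did not overlap (log2 fold change -1.02, SE 0.34, edgeR adjusted p 0.247). Ifi35 had a log2 fold change of -0.23 (edgeR adjusted p 0.423). For Ifi44 it was -0.18 (edgeR adjusted p 0.727) on gene reads, of which introns held 103, 131, 120 and 114 of 127, 154, 141 and 131. On uniquely placed exon reads it was -0.47 (SE 0.36, edgeR adjusted p 0.611), and RPKM of 0.496 and 0.357 in WT against 0.300 and 0.306 kept the groups apart. Sp100, a component of nuclear bodies, was at 0.188 and 0.275 RPKM in WT against 0.228 and 0.210 RPKM in the pair labelled Nfat5-/-. Its groups overlapped (log2 fold change -0.14, SE 0.33, edgeR adjusted p 0.892).

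**Figure D3:**
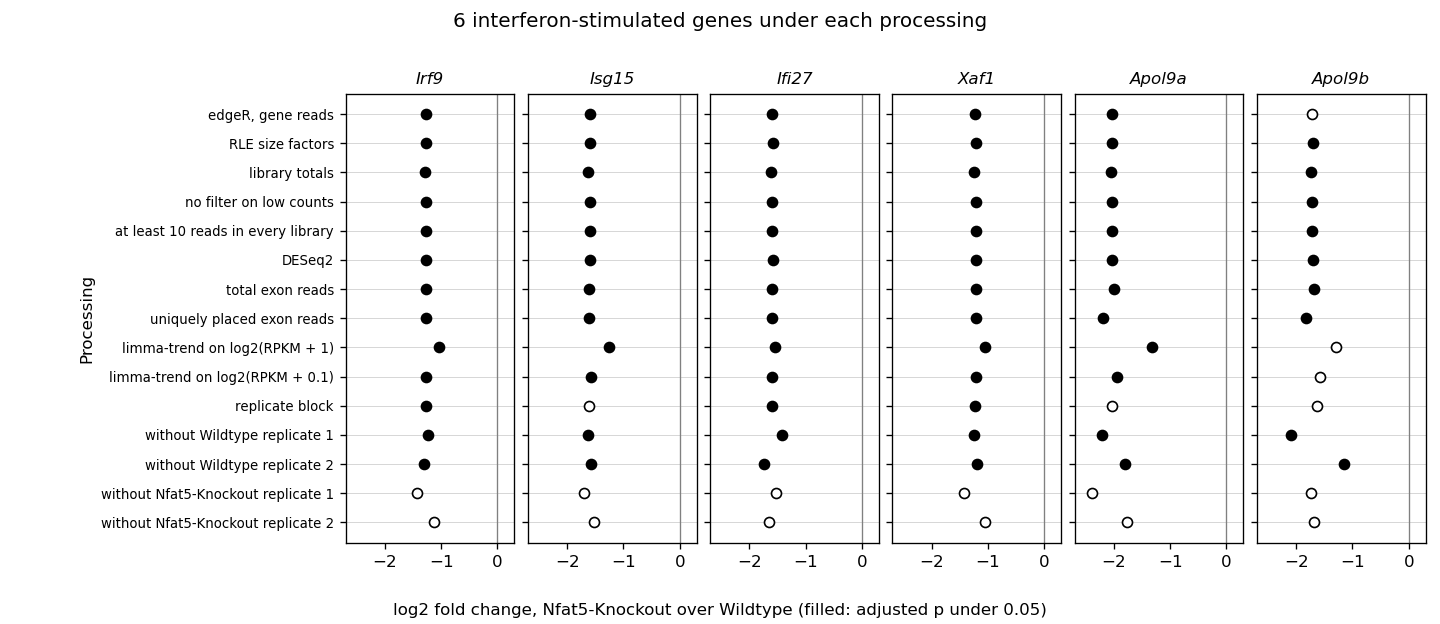
Log2 fold change, Nfat5-Knockout over WT, of the 6 genes called on gene or uniquely placed exon reads, under the main processing (top row) and 14 alternatives, filled where the adjusted p is under 0.05. All points lie below 0, and the rows without a Nfat5-Knockout library are open for every gene.

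The 6 called genes kept a negative log2 fold change under each of the 14 alternatives. It ranged from -1.43 to -1.05 for Irf9, from -1.74 to -1.43 for Ifi27, from -1.42 to -1.05 for Xaf1, from -1.70 to -1.25 for Isg15, from -2.40 to -1.32 for Apol9a and from -2.09 to -1.16 for Apol9b. Irf9, Ifi27 and Xaf1 were called in 12 of the 14, Isg15 and Apol9a in 11 and Apol9b in 9. Their largest adjusted p over the alternatives was 0.0652 for Ifi27, 0.132 for Irf9, 0.137 for Xaf1, 0.203 for Apol9a, 0.290 for Isg15 and 0.349 for Apol9b.

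The genes upstream of this response were taken from a list of 43, of which 30 were tested and 0 were called in either direction by edgeR or DESeq2. At an unadjusted p under 0.05, 4 of the 30 were lower and 2 higher, beside 6.47% and 8.17% of all genes tested. The median log2 fold change was -0.05, with 17 below 0 and 13 above. Of 10 interferon ligand genes, 9 had 0 RPKM in all 4 libraries, among them Ifnb1 and the keratinocyte interferon Ifnk, and Ifng was at 0.112 RPKM in WT replicate 2 and 0 elsewhere. None of these 10 transcripts was detectable above the floor of 3 reads, and other interferon alpha genes were not analysed here.

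Transcripts of the receptors and kinases were present in all 4 libraries, and none of these genes was called. Ifnar1, the first chain of the type I interferon receptor, was at 11.2 and 12.9 RPKM in WT against 11.8 and 11.6 RPKM in the pair labelled Nfat5-/- (log2 fold change -0.03, SE 0.11, edgeR adjusted p 0.931). For the second chain, Ifnar2, the value was 0.15 (SE 0.12, edgeR adjusted p 0.604). The kinases Jak1 and Tyk2 were at 0.17 (SE 0.12, edgeR adjusted p 0.588) and -0.16 (SE 0.11, edgeR adjusted p 0.559). Jak2, the kinase of the interferon gamma receptor, was at -0.30 (SE 0.12, edgeR adjusted p 0.331) with groups that did not overlap. Of 8 inhibitors of the pathway, 7 lay below 0, against 52% of all genes tested, and 0 were called. At an unadjusted p under 0.05, 3 were lower, against 6.47% of all genes tested. These were Socs1, Socs3 and Samhd1, at -0.56, -0.40 and -0.28 on the log2 scale.

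**Figure D4:**
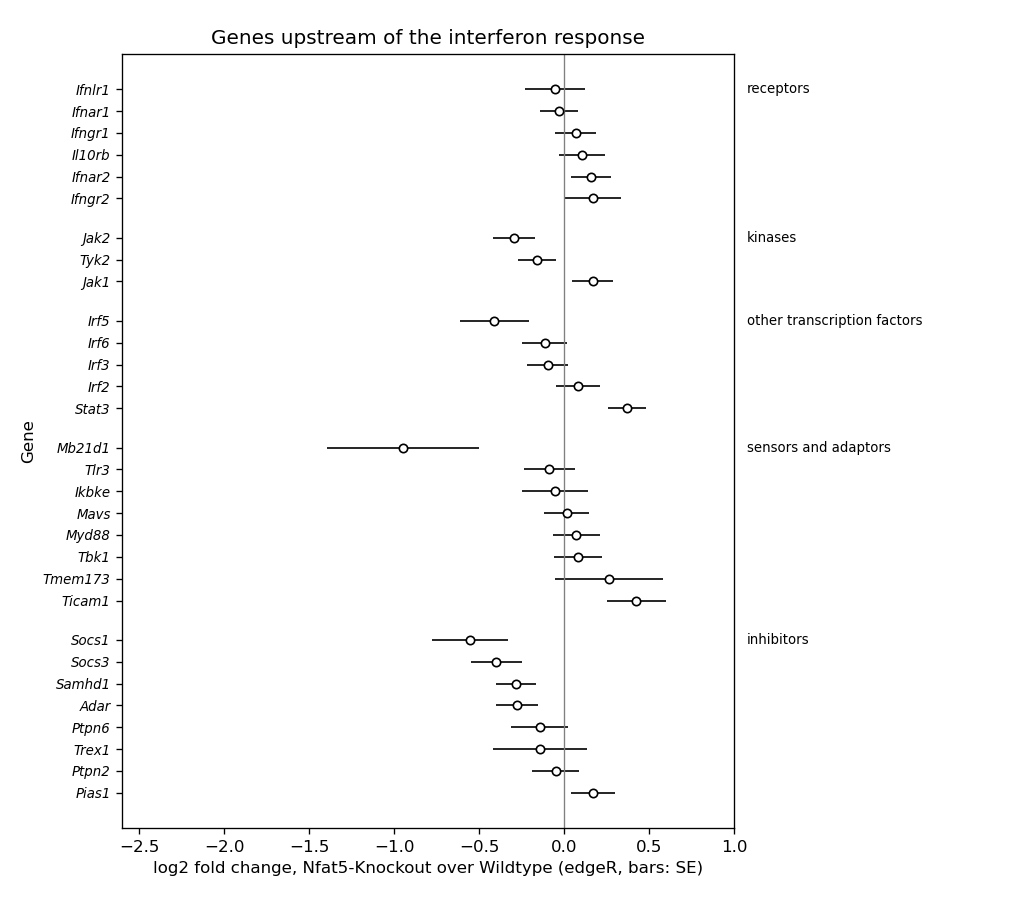
Log2 fold change, Nfat5-Knockout over WT, from the edgeR fit on gene reads for the 30 tested genes upstream of the interferon response, by role, with bars for 1 SE and open points for an adjusted p of 0.05 or more. All points are open, and they lie between -0.95 (Mb21d1) and 0.42 (Ticam1).

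A further list of 48 interferon-stimulated genes outside the 45 was read in the same way. Of these, 27 were tested, 16 below 0 and 11 above, and 0 were called by edgeR or by DESeq2, with 3 lower and 4 higher at an unadjusted p under 0.05, beside 6.47% and 8.17% of all genes tested. Their median log2 fold change was -0.06.

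Promoter motifs were then set beside the fold changes. Of the called genes with a promoter in the table, 3 of 5 held the ISRE core (Isg15, Apol9a, Apol9b), and Irf9 and Xaf1 did not. Among tested genes without a call 13 of 23 held it, and the 4 genes with a log2 fold change above 0 on gene reads (Oas1g, Bst2, Eif2ak2, Ifitm3) all did. The core was thus present on both sides of 0. The GAS core (TTC, any 3 bases, GAA), which reads the same on both strands, stood in 8 of 34 promoters (23.5%) against 9.55% of all genes with a promoter, in none of the 5 called genes (0 of 5), and in 8 of the 23 tested without a call.

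**Figure D5:**
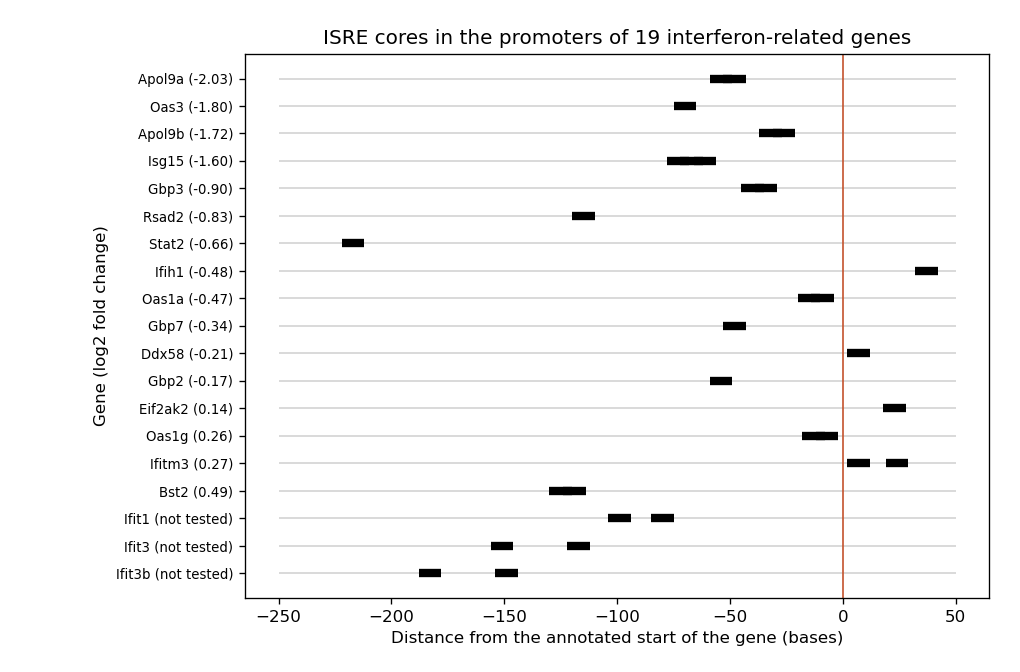
Positions of ISRE cores (black) relative to the annotated start (vertical line) in the promoter windows (grey, 250 bases before to 50 after) of the 19 genes that hold one, ordered by log2 fold change from Apol9a at the top to Bst2, then untested genes. Cores begin between 222 bases before the start (Stat2) and 32 bases after it (Ifih1), with no match shown for the 15 other genes in the table.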

How the data were processed

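Polyadenylated RNA of 2 WT and 2 Nfat5-/- KC cultures, grouped by the sample titles, was sequenced. Per the study's methods, the authors trimmed the reads and aligned them to GRCm38 with the CLC Genomics Workbench. The authors deposited counts of gene, exon, intron and uniquely placed exon reads, not normalized, and RPKM values, used here for levels.

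Gene reads of all genes were tested with edgeR 4.0.16 in R 4.3.3 (filterByExpr with a minimum count of 10, TMM scaling, quasi-likelihood fit with genotype alone, two-sided, Benjamini-Hochberg over all genes tested, threshold 0.05). The same fit on uniquely placed exon reads gives the values of the Oas, Ifit and Apol9 genes, since the software distributes reads that match more than 1 site. SE is the log2 fold change over the square root of F. The code was tested on simulated counts. Replicates differed by more than sampling noise (chi-square per degree of freedom 16.7 in WT and 17.3 in Nfat5-/-). The 14 alternatives were other scalings, filters and reads, DESeq2 1.42.0, limma-trend 3.58.1 on log2(RPKM + 1) and log2(RPKM + 0.1), a replicate block, and each library left out, where a lone library is assumed to vary like the other group.

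The genes and lists were chosen with earlier results of these data known. Named by rule were Irf9, Stat2, Irf7, Irf1, called genes, the Oas1, Ifit3 and Apol9 copies, the highest and lowest log2 fold change of each role group, and upstream Ifnar1, Ifnar2, Jak1 and Tyk2. All further names were picked once their values had been seen. Of the written markers, 1 leukocyte gene was not analysed here. Apart from the 43 upstream genes counted, 1 gene of the pathway is not reported here.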

Additional observations from a re-analysis of the deposited data

How the results depend on the processing

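The count of interferon genes called lower (5) became 16 with no filter on low counts, where 2.29% of all genes were called lower, and 0 to 9 with 1 library left out, the 0 in both cases where a library labelled Nfat5-/- was missing. It stayed within 5 to 7 under the other scalings, the stricter filter, DESeq2, exon reads and limma-trend, beside 0.37% to 0.654% of all genes called lower, and those calls included all 5 genes each time. The count on uniquely placed exon reads (6) became 15 with no filter, where 2.59% of all genes were called lower. Over all genes the 160 calls became 1137 with no filter, 416 with DESeq2 and 16 to 478 with 1 library left out. With no filter the further list went from 0 calls to 4 of 48, counted in both directions. There 2.29% of all genes were called lower and 4.01% higher. The upstream list stayed at 0 in every fit of all 4 libraries. None of the 45 genes was called higher under any of the 14 alternatives. The median log2 fold change of the genes tested (-0.66) was -0.37 on log2(RPKM + 1), where fewer genes passed the filter and the added 1 lowers the change of weak genes, and -0.82 to -0.38 with 1 library left out, the latter without WT replicate 2. Signs turned only for values near 0: Irf1 ranged from -0.22 to 0.24 with 1 library left out (0.24 without WT replicate 2 and 0.03 without Nfat5-/- replicate 2), Eif2ak2 from -0.0060 (without Nfat5-/- replicate 2) to 0.28, and Sp100 from -0.35 to 0.16 (without WT replicate 2), with 0.018 on uniquely placed exon reads. Without a change of sign, values that missed the threshold ranged with 1 library left out from -1.35 to -0.63 for Dhx58, from -0.38 to -0.00029 for Ifit2, from -0.79 to -0.20 for Oas1a, from -0.33 to -0.018 for Gbp2, from -0.55 to -0.072 for Gbp7 and from -0.31 to -0.050 for Ifi44. The cause of these shifts was not tested. Other scalings moved the median of all genes from -0.010 to -0.0050 (RLE) and -0.030 (library totals).

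Deviations of same-numbered libraries had a correlation of -0.065 across 12614 genes, which are not independent replicates. With 2 libraries per group, this value cannot tell whether same-numbered cultures shared an animal or a preparation. With the replicate block 3 interferon genes were called lower (Ifi27, Irf9 and Xaf1), beside 0.285% of all genes tested, and on uniquely placed exon reads the block left the count at 6, beside 0.539%. Depth limits the 10 untested genes, with at most 18 reads in any library.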

Other observations

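Reads in introns of the interferon genes, which include RNA not yet spliced, were counted apart from exon reads. Over all 45 genes they came to 43.8 and 36.9 CPM in WT against 27.0 and 24.5 CPM in the pair labelled Nfat5-/-. Most of them lay in Ddx58 and Ifi44, and without these, set aside after their values were seen, the other 43 genes gave read counts of 115 and 185 for WT and of 70 and 59 for the other pair. These are 7.09 and 8.56 CPM against 2.98 and 3.16 CPM, so the groups did not overlap on either sum, and no test was run. Over whole libraries the intron share was 1.97% and 1.94% in WT and 1.85% and 1.79% in the other group.

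The gene reads of all 45 genes together came to 566 and 679 CPM in WT against 525 and 472 CPM in the pair labelled Nfat5-/-. Ifitm3 alone made up 23.0% and 29.1% of these reads in WT and 41.2% and 36.8% in the other group. Ifitm3, whose log2 fold change lay above 0, was then set aside after its values were seen. The sums without it were 436 and 481 CPM in WT against 309 and 299 CPM in the pair labelled Nfat5-/-.

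Replicates of a group differed from gene to gene. Of the 35 tested genes, 24 had a higher level in WT replicate 2 than in WT replicate 1, with a median ratio of 1.21, and the most unequal was Oas3, which was 3.76-fold higher in replicate 1. Among the libraries labelled Nfat5-/-, 16 of the 35 were higher in replicate 2, with a median ratio of 0.962, and the most unequal was Oas1b, which was 4.42-fold higher in replicate 2.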
